A study of Mus musculus with 14 samples.

Results

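The transcripts of 10 mouse heat shock protein genes were examined in 14 mammary tumors by bulk RNA-seq. The genes were Hspb1, Cryab, Hspa1a, Hspa1b, Hspa8, Hsph1, Dnajb1, Hsp90aa1, Hspd1 and Hspe1. They were chosen because Hspb1 was lower in NAM-treated than in untreated AT3 tumors, so that their values in that comparison are given as a description, with no p-value. Counts of these genes past the thresholds in that comparison are a description too, from which nothing is read. The deposited table lists 56414 genes, and the 10 genes fill 9 of its rows, as Hspa1a and Hspa1b share 1 row. All 9 rows passed the filter on low values, a mean of at least 10 normalized counts in at least 1 group. Each value is a normalized count, the number of reads on a gene divided by a size factor that levels the depth of the tumors.

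All mice were of the C57Bl/6 strain. M/D-driven tumors arose in the mammary gland of females that were 6 to 9 weeks old when they received a slow-release medroxyprogesterone acetate (M) pellet, followed by repeated oral 7,12-dimethylbenz[a]anthracene (D), a carcinogen. AT3 tumors grew from 1 transplanted mammary carcinoma cell line under the skin, with no pellet or carcinogen described for them. Mice entered a treatment arm when their tumor measured 0.25 cm2, and NAM (nicotinamide, a form of vitamin B3) was then given at 0.5% in the drinking water for 10 days. The M/D model gave 4 tumors per arm and the AT3 model 3 per arm, untreated or NAM-treated, with 1 library per tumor. NAM-treated M/D-driven tumor 1 belonged to experiment 2, the other 7 M/D-driven tumors to experiment 1, and all AT3 tumors to experiment 3. Model and experiment therefore cannot be told apart.

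Heat shock proteins are molecular chaperones, which keep other proteins folded or hold unfolded ones until they can be refolded. Small heat shock proteins bind unfolding clients without ATP, Hsp70 proteins fold them in cycles of ATP use that J-domain proteins start and nucleotide exchange factors reset, Hsp90 proteins finish kinases and hormone receptors (including those for estrogen and progesterone), and the Hsp60 chaperonin folds proteins inside mitochondria. Under stress, heat shock factor 1 binds repeats of the bases GAA and TTC in promoters and raises the inducible members. The small heat shock protein alpha-B-crystallin is known as a marker of myoepithelial cells in the breast and is abundant in muscle.

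The promoters of the members on which the results turn are shown because they carry the sites at which heat shock factors are known to act, and because 2 of them are shared or nearly identical. The 150 bases before the start site, on the strand of the gene, were taken from RefSeq (GRCm38.p6). Capitals mark runs of inverted GAA and TTC repeats, spelled GAANNTTC or TTCNNGAA.
Hspb1, chr5:135887769-135887918, plus strand: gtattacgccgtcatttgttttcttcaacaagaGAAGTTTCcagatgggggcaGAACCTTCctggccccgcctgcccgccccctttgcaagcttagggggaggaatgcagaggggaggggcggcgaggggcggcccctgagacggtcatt
Hspa1a, chr17:34972157-34972306, minus strand: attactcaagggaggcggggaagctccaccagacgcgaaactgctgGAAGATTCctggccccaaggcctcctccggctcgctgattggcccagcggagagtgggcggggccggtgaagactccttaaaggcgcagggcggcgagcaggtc
Hspa1b, chr17:34959239-34959388, minus strand: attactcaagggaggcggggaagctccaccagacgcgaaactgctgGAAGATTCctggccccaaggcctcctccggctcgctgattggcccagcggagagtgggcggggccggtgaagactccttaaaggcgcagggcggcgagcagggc
Hspe1, chr1:55087998-55088147, plus strand: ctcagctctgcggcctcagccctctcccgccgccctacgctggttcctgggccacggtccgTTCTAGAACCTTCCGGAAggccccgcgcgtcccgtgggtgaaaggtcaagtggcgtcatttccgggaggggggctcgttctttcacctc

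In Hspb1, 2 separate GAANNTTC matches began 117 and 97 bases before the start site. Hspa1a and Hspa1b each held 1 match, 104 bases before the start site, and their windows of 300 bases (250 before to 50 after the start) were the same at 296 bases, or 98.7%. Hspe1 held a run of 4 alternating repeats that began 89 bases before its start site. Hspd1 lies next to Hspe1 on the other strand, and the same run, read from the other side, began 144 bases before an Hspd1 start site, whereas the window of another Hspd1 start site held no match. Such a run of 4 repeats was found in 8 of 32851 promoter windows of that length, or 0.0244%, whereas GAANNTTC was found in 7.86%, TTCNNGAA in 8.52%, either of them in 15.1% and 3 alternating repeats in 0.603%. Both spellings read the same on both strands, and the longer runs contain the shorter ones. In Hsph1, TTCNNGAA began 33 or 54 bases before the start site, depending on which of the start sites was used, and a run of 3 alternating repeats began 37 or 16 bases after it. A match describes the letters of these windows and says nothing of binding in these tumors. Windows were found for 7 of the 10 genes. Neither spelling was found in the windows of Dnajb1. Cryab, Hspa8 and Hsp90aa1 were not matched to a window.

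On mm10, the assembly of the files, Hspb1 (GSMG0029911) spans chr5:135887919-135889563 and Cryab (GSMG0039512) chr9:50751325-50756636. The joint row of Hspa1a and Hspa1b (GSMG0017445) spans chr17:34956429-34972340, Hspe1 (GSMG0000255) spans chr1:55088148-55091317 and Hspd1 (GSMG0001599) chr1:55077834-55087932. All are protein-coding genes. Reads of Hspa1a and Hspa1b cannot be separated in these values. GENCODE also names 5 pseudogenes after Hspd1 and 6 after Hspe1, and how reads that fit several copies were shared was not stated, so that levels of these 2 genes are uncertain to that extent.

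Between 40936868 and 84178009 reads were recovered per tumor. NAM-treated M/D-driven tumor 1 stood apart from the other 7 M/D-driven tumors, against its label of a mammary gland tumor. Its 9 epithelial markers summed to 7666 normalized counts, against 115824 to 369891 in the other 7, and its 5 basal and myoepithelial markers to 1642, against 77363 to 1069315. The B cell receptor gene Cd79a was at 86806 in this tumor and at 17 to 822 in the other 7. No epithelial or basal marker was at 0 in any M/D-driven tumor. Several results below are given with and without this tumor, and leaving it out also leaves the M/D-driven tumors of experiment 1 alone. Values given only over all M/D-driven tumors include it. In NAM-treated M/D-driven tumor 4, the 10 skeletal muscle markers summed to 315002, against 278 to 106363 in the other 7, and the 5 smooth muscle markers to 583275, against 9656 to 253593.

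**Figure D1:**
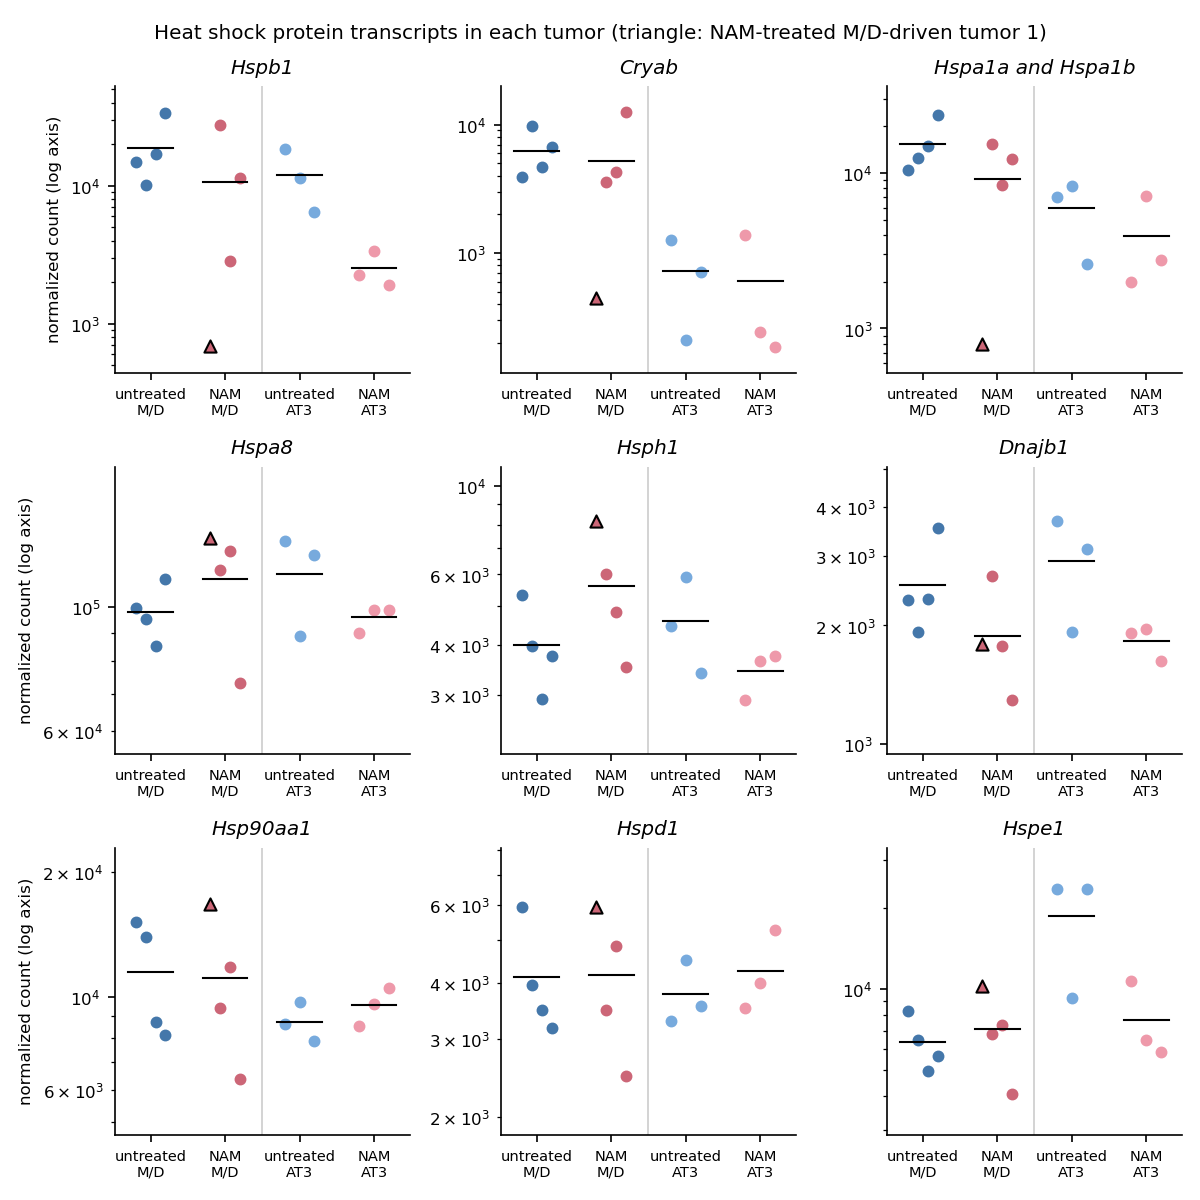
Normalized counts of the heat shock protein genes in each of the 14 tumors, with 1 panel per row of the table and a log axis of normalized counts. Points are tumors, black lines are group means, and the triangle is NAM-treated M/D-driven tumor 1, which was the lowest M/D-driven tumor for Hspb1, Cryab and the joint row of Hspa1a and Hspa1b, and the highest for Hspa8, Hsph1, Hsp90aa1 and Hspe1.

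The small heat shock proteins are described first. Hspb1 encodes Hsp25, the mouse counterpart of human HSP27, which binds unfolding proteins and actin filaments. In untreated M/D-driven tumors 1 to 4, Hspb1 was at 14840, 10171, 16960 and 33454 normalized counts. In NAM-treated M/D-driven tumors 1 to 4, it was at 693, 27458, 2870 and 11464. The groups overlapped, since NAM-treated tumors 2 and 4 lay inside the untreated range and tumors 1 and 3 below it. The log2 difference was -1.77 (SE 1.04, n = 4 and 4), and it did not pass the test (adjusted p = 0.751, limma over 21700 genes). Without tumor 1, that is, within experiment 1, it was -0.82 (SE 0.75, adjusted p = 0.866 in limma). Without NAM-treated M/D-driven tumor 2 it was -2.59 and passed the thresholds given below.

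In AT3 tumors, Hspb1 was at 18302, 11366 and 6439 normalized counts in untreated tumors 1 to 3. It was at 2260, 3382 and 1902 in NAM-treated tumors 1 to 3. The 2 groups did not overlap, and the lowest untreated tumor stood above the highest NAM-treated one. This is the difference by which the genes were chosen. It amounted to -2.17 on the log2 scale (SE 0.38), or a level 4.52-fold lower, and ranged from -2.56 to -1.81 as each tumor was left out in turn.

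Cryab encodes alpha-B-crystallin, a small heat shock protein of lens, muscle and myoepithelial cells. It was at 3894, 9813, 4664 and 6682 normalized counts in untreated and at 451, 3556, 4265 and 12457 in NAM-treated M/D-driven tumors. Tumor 1 was the lowest of the 8 and tumor 4, with the highest muscle markers, was the highest. Other tumors were ordered differently. NAM-treated tumor 2, with a skeletal muscle sum of 106363, was the second lowest for Cryab. Untreated tumor 2 was the second highest, with a skeletal muscle sum of 1082 and a smooth muscle sum of 253593. The log2 difference was -0.95 (SE 0.89, adjusted p = 0.821 in limma) with tumor 1 and -0.03 (SE 0.50) without it. In AT3 tumors, Cryab was at 1264, 211 and 710 in untreated and at 1388, 245 and 187 in NAM-treated tumors, and the groups overlapped. Skeletal muscle actin Acta1 was at 3304, 0 and 4286 in the untreated and at 8411, 38 and 705 in the NAM-treated AT3 tumors. Tumor 2 was the lowest untreated tumor and tumor 1 the highest NAM-treated tumor for both genes, and the part of muscle in the Cryab values was not tested. In bulk tumors, fewer cells of a type and less RNA per cell cannot be told apart.

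Inducible Hsp70, encoded by the near-identical genes Hspa1a and Hspa1b, is the protein by which the heat shock response is best known. Their joint row was at 10549, 12502, 15004 and 23668 normalized counts in untreated M/D-driven tumors. It was at 795, 15427, 8392 and 12300 in the NAM-treated ones. Tumor 1 was the lowest of the 8, tumor 3 also lay below the untreated range, and tumors 2 and 4 lay inside it. The log2 difference of -1.30 (SE 0.87, adjusted p = 0.774 in limma) was -0.33 (SE 0.33) without tumor 1. In AT3 tumors, the row was at 7060, 8236 and 2609 in untreated and at 1991, 7132 and 2773 in NAM-treated tumors, which overlapped, with a log2 difference of -0.65 (SE 0.54).

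Hspa8, the constitutive Hsp70 of the cytosol, was the most abundant of the genes and among the steadiest. It ranged from 85216 to 112213 normalized counts in untreated and from 73085 to 133008 in NAM-treated M/D-driven tumors, with a log2 difference of 0.16 (SE 0.23, adjusted p = 0.882 in limma). In AT3 tumors it ranged from 88930 to 131272 in untreated and from 89703 to 98858 in NAM-treated tumors. Hsp90aa1, the stress-responsive form of cytosolic Hsp90, differed between arms by -0.08 on the log2 scale in M/D-driven tumors (SE 0.34) and by 0.13 in AT3 tumors (SE 0.20). Its values lay between 6362 and 16784 in M/D-driven and between 7853 and 10559 in AT3 tumors.

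Hsph1 encodes Hsp110, a nucleotide exchange factor for Hsp70. It was at 5324, 3979, 2929 and 3744 normalized counts in untreated and at 8155, 6016, 4830 and 3509 in NAM-treated M/D-driven tumors. Groups overlapped, although tumors 1 and 2 of the NAM-treated arm stood above all untreated tumors. The log2 difference was 0.46 (SE 0.30, adjusted p = 0.769 in limma), and 0.66 without NAM-treated tumor 4, which passed the thresholds. In AT3 tumors, Hsph1 was at 4445, 5919 and 3405 in untreated and at 2912, 3646 and 3756 in NAM-treated tumors, a log2 difference of -0.39 (SE 0.25) with groups that overlapped.

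Dnajb1 encodes Hsp40, the J-domain partner that delivers clients to Hsp70. Its normalized counts were 2326, 1922, 2343 and 3554 in untreated and 1793, 2668, 1777 and 1289 in NAM-treated M/D-driven tumors. NAM-treated tumors 1, 3 and 4 lay below every untreated tumor, and tumor 2 lay inside the untreated range. The log2 difference was -0.44 (SE 0.28, adjusted p = 0.766 in limma), and -0.62 without NAM-treated tumor 2, which passed the thresholds. In AT3 tumors, Dnajb1 was at 3700, 1923 and 3131 in untreated and at 1910, 1961 and 1622 in NAM-treated tumors. Untreated AT3 tumor 2 lay among the NAM-treated tumors, and the log2 difference was -0.62 (SE 0.27).

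Hspd1 and Hspe1 encode Hsp60 and Hsp10, the barrel and the lid of the mitochondrial chaperonin. In M/D-driven tumors, Hspd1 was at 5943, 3960, 3489 and 3167 normalized counts in untreated and at 5940, 3484, 4849 and 2476 in NAM-treated tumors. Hspe1 was at 8303, 6477, 4977 and 5620 in untreated and at 10217, 6815, 7314 and 4073 in NAM-treated tumors. Both arms covered nearly the same range for Hspd1, with a log2 difference of -0.02 (SE 0.32), and overlapped for Hspe1, with a log2 difference of 0.12 (SE 0.30). In AT3 tumors, Hspd1 was at 3293, 4505 and 3564 in untreated and at 3515, 4005 and 5277 in NAM-treated tumors, whereas Hspe1 was at 23439, 9275 and 23358 in untreated and at 10652, 6450 and 5839 in NAM-treated tumors. Untreated AT3 tumors 1 and 3 stood apart above the 4 other AT3 tumors for Hspe1. The log2 difference in AT3 tumors was 0.16 (SE 0.23) for Hspd1 and -1.22 (SE 0.39) for Hspe1, with groups that overlapped for both.

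Counted over the 9 rows, NAM-treated M/D-driven tumors had 0 higher and 0 lower at the thresholds used for these data (a fold change of 1.5 or more with an unadjusted p no higher than 0.05, in limma). Of 21700 genes tested, 3.03% were higher and 3.19% lower, and the groups did not overlap for 4.43%. None of the 9 rows had groups that did not overlap in M/D-driven tumors. The edgeR and DESeq2 tests on recovered reads also called 0 of the 9, with a log2 difference for Hspb1 of -0.86 and -0.83. At an unadjusted p under 0.05, 0 rows were found by limma. In AT3 tumors, 3 of the 9 rows were lower (Hspb1, Hspe1 and Dnajb1) and 0 were higher, where 10.9% of the 19281 genes tested were lower and 12.2% higher. The AT3 groups did not overlap for 1 row, Hspb1, and for 22.6% of all genes tested. Nothing is read from these AT3 counts, since the genes were chosen on that contrast. Dnajb1 was no longer past the fold threshold after TMM rescaling (log2 difference -0.58), and 1 row was lower by the thresholds without untreated AT3 tumor 1. The median log2 difference over the 9 rows was -0.08 in M/D-driven and -0.53 in AT3 tumors, against 0.01 and -0.05 over all genes tested.

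**Figure D2:**
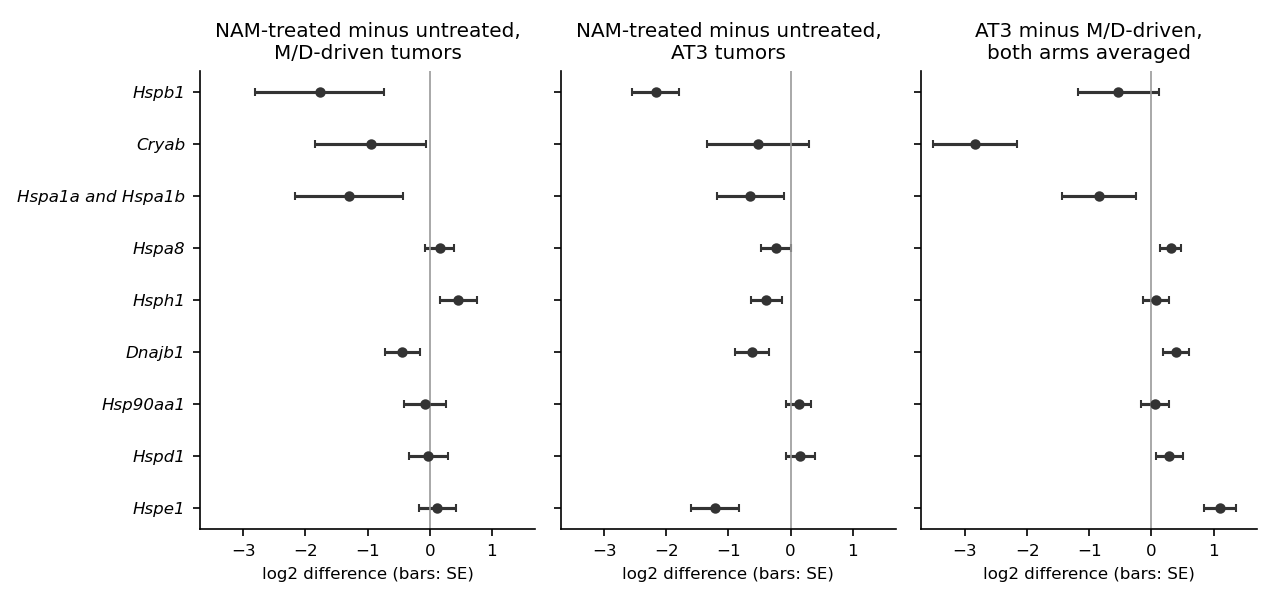
Log2 differences of the 9 rows (points) with their SE (bars) for NAM-treated minus untreated M/D-driven tumors, NAM-treated minus untreated AT3 tumors, and AT3 minus M/D-driven tumors. In M/D-driven tumors the SE of Hspb1, Cryab and the joint row of Hspa1a and Hspa1b were 1.04, 0.89 and 0.87, and those of the other rows 0.23 to 0.34, whereas without NAM-treated tumor 1 they were 0.75, 0.50 and 0.33, against 0.25 to 0.31.

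Over all 8 M/D-driven tumors, 3 rows spanned more than the other 6. From the lowest to the highest of the 8 tumors, Hspb1 spanned 48.2-fold, the joint row of Hspa1a and Hspa1b 29.8-fold and Cryab 27.6-fold, whereas the other 6 rows spanned 1.82- to 2.78-fold. Without tumor 1 of the NAM-treated arm the spans were 11.7-fold for Hspb1, 2.82-fold for Hspa1a and Hspa1b and 3.5-fold for Cryab, against 1.72- to 2.76-fold for the other 6, so that Hspa1a and Hspa1b no longer stood apart. The SD within arms on the log2 scale was 1.72 for Hspb1, 1.47 for Cryab and 1.44 for Hspa1a and Hspa1b, which placed them at the 86.1st, 81.2nd and 80.4th percentile of all genes tested. The other rows were at the 17.1st to 39.4th percentile. Without tumor 1, the SD was 1.18 for Hspb1, 0.77 for Cryab and 0.48 for Hspa1a and Hspa1b, against 0.30 to 0.46 for the other rows. NAM-treated tumor 4 was the lowest of the 8 for Hspa8, Dnajb1, Hsp90aa1, Hspd1 and Hspe1.

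**Figure D3:**
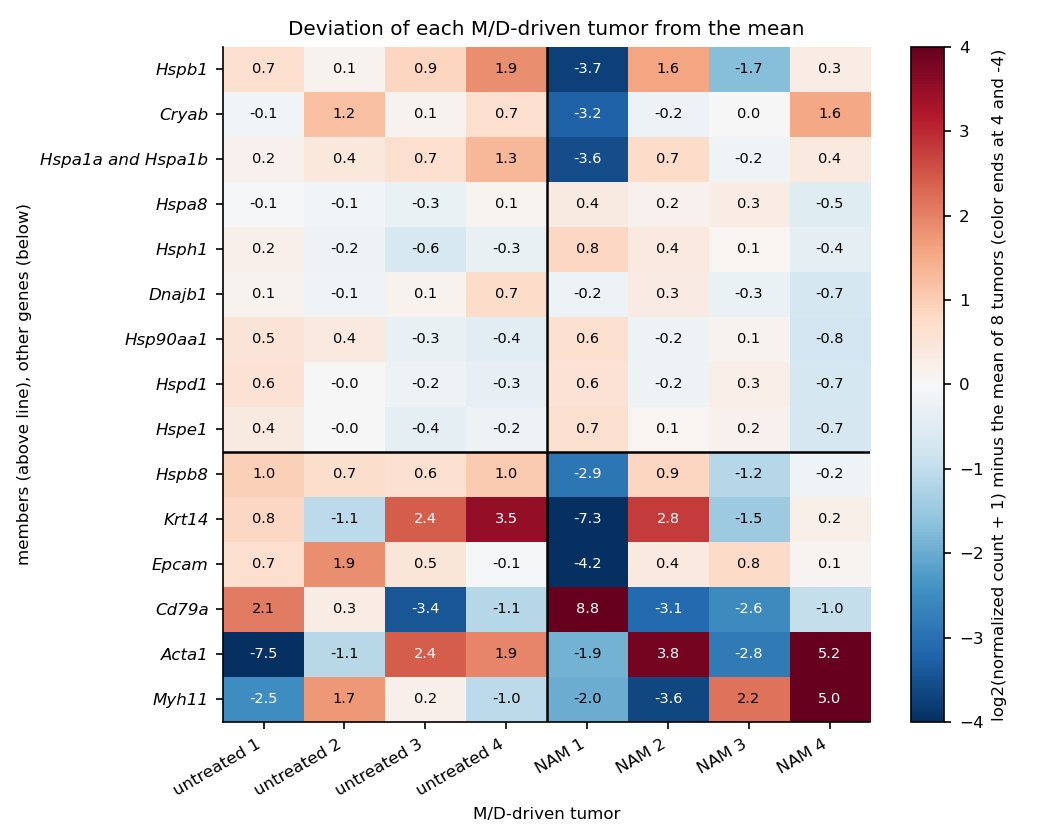
Deviation of each M/D-driven tumor from the mean of the 8 tumors, in log2(normalized count + 1), for the 9 rows of heat shock protein genes (above the line) and for the small heat shock protein gene Hspb8, the basal keratin gene Krt14, the epithelial gene Epcam, the B cell gene Cd79a and the muscle genes Acta1 and Myh11 (below it). In NAM-treated tumor 1, Hspb1, Cryab, Hspa1a and Hspb8 were low together with Krt14 and Epcam while Cd79a was high, and in NAM-treated tumor 4, Cryab was high together with Acta1 and Myh11.

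The keratin gene Krt14 was at 116260, 31475, 348348 and 752028 normalized counts in untreated and at 424, 449937, 23904 and 76241 in NAM-treated M/D-driven tumors. NAM-treated tumors 1 and 3, the lowest 2 for Krt14, were also the lowest 2 for Hspb1, and untreated tumor 4 and NAM-treated tumor 2 were the highest 2 for both. Krt14 was picked from the 5 basal markers after its values were seen, and the other 4 were ordered differently. Untreated tumors 3 and 4 were the highest 2 for Krt5, Krt17 and Trp63, and untreated tumor 2 was the second lowest for Krt17 and Trp63. Oxtr was second lowest in NAM-treated tumor 2 (682) and highest in NAM-treated tumor 4 (46044). The part of basal and myoepithelial cells in the Hspb1 values was not tested. In AT3 tumors, all 9 epithelial markers were detected in every tumor, with sums of 60352 to 89846 in untreated and 68419 to 73702 in NAM-treated tumors, and Krt14 was at 10836 to 22216 in untreated and at 5979 to 11377 in NAM-treated tumors. Trp63 differed in the other direction, at 488 to 677 in untreated and at 561 to 1567 in NAM-treated AT3 tumors.

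Partners of known relation were then compared across the 8 M/D-driven tumors, which played no part in choosing the genes. Hspd1 and Hspe1 rose and fell together, with a Pearson r of 0.93 (exact permutation p = 0.00126, adjusted p = 0.00504 over the 4 pairs compared) and a Spearman rho of 0.86 (exact permutation p = 0.0107, adjusted p = 0.0428). Within experiment 1 the r was 0.91 (adjusted p = 0.0222, exact permutation test), and without the 2 tumors farthest from the median of Hspd1 it was 0.87 (adjusted p = 0.0888, exact permutation test). The rho fell short of the threshold in both subsets, at 0.82 (adjusted p = 0.136, exact permutation test) and 0.71 (adjusted p = 0.544, exact permutation test). The AT3 tumors were left out, and there the 2 genes did not rise and fall together. Untreated AT3 tumor 1 was the highest AT3 tumor for Hspe1 and the lowest for Hspd1, and NAM-treated AT3 tumor 3 was the reverse. No r was computed for AT3 tumors. Pairs that are not partners had an r as high over the 8 tumors, which is given as a description with no test, at 0.94 for Hsp90aa1 and Hspd1, 0.91 for Hsp90aa1 and Hspe1 and 0.88 for Hsph1 and Hspe1. Hspb1 and Cryab had an r of 0.72 (exact permutation p = 0.0744, adjusted p = 0.149) and a rho of 0.17 over the 8 tumors. That r rested on NAM-treated tumor 1, since it was -0.04 in the 7 tumors of experiment 1. Hspa8 and Hsp90aa1 had an r of 0.58 (exact permutation p = 0.134, adjusted p = 0.179) and Hsph1 and Dnajb1 an r of -0.05 (exact permutation p = 0.918, adjusted p = 0.918). The planned pair of Hspa1a and Hspa1b could not be computed from 1 row.

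**Figure D4:**
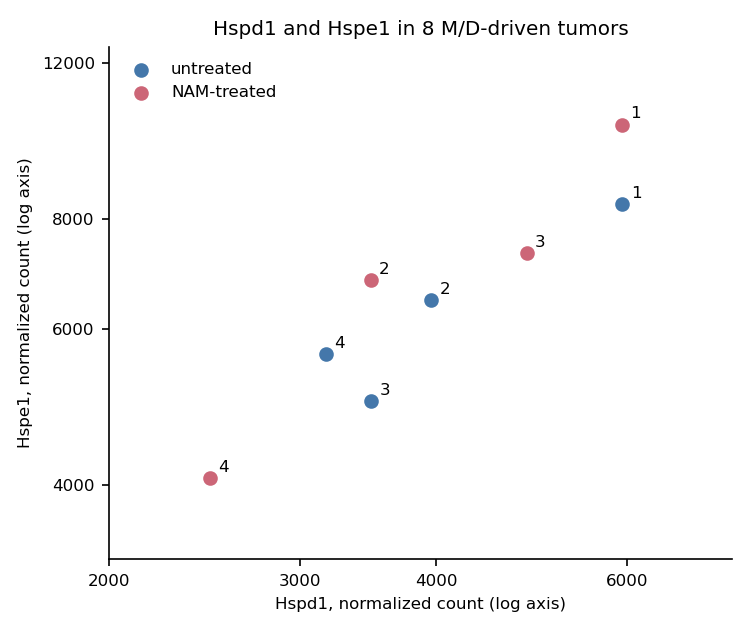
Normalized counts of Hspe1 against those of Hspd1 in the 8 M/D-driven tumors, both on log axes, with replicate numbers beside the points and colors for the untreated and NAM-treated arms. The tumors lie along 1 line from NAM-treated tumor 4 (2476 and 4073) to NAM-treated tumor 1 (5940 and 10217), and both arms are spread along it.

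The genes most alike to the mean of the standardized heat shock protein rows over these 8 tumors were Eif3g (r = 0.974), Rpl7l1 (0.962), Cdc123 (0.959), Psma7 (0.957) and Rimbp3 (0.952). They were picked from all genes with a symbol for this likeness, with no test. The rows did not move as 1 group, so that their mean does not stand for each of them. Hspb1, Cryab and the joint row of Hspa1a and Hspa1b had an r of -0.47 to -0.81 with Hspa8, Hsph1, Hsp90aa1, Hspd1 and Hspe1. All these values include NAM-treated tumor 1. That tumor was the lowest of the 8 for Hspb1, Cryab and the joint row, and the highest for Hspa8, Hsph1, Hsp90aa1 and Hspe1. How far the negative r rest on it was not tested.

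Between models, the average of both arms was compared after TMM rescaling over all 14 tumors, because each model had been normalized apart. Cryab was lower in AT3 than in M/D-driven tumors, with a log2 difference of -2.84 (SE 0.68, adjusted p = 0.00437 in limma over 22809 genes), a level 7.15-fold lower. Hspe1 was higher in AT3 tumors by 1.10 (SE 0.26, adjusted p = 0.00436 in limma), or 2.14-fold. Before rescaling, its mean was 18690 in untreated AT3 against 6344 in untreated M/D-driven tumors, and 7647 against 7105 in the NAM-treated arms. Untreated AT3 tumors 1 and 3, at 23439 and 23358, stood above all other tumors. The models were not compared within each arm. Cryab and Hspe1 were the 2 of 9 rows past an adjusted p of 0.05 and a fold of 1.5, where 18.3% of all genes tested were higher and 27.0% lower. Hspb1, at -0.53 (SE 0.65, adjusted p = 0.512 in limma), and the joint row of Hspa1a and Hspa1b, at -0.84 (SE 0.60, adjusted p = 0.259 in limma), did not pass. Without NAM-treated M/D-driven tumor 1, the joint row was at -1.32 and passed (adjusted p = 0.00613 in limma), Cryab was at -3.30 and Hspb1 at -1.01 (adjusted p = 0.0762). Among cell type markers, 4 of 5 smooth muscle, 2 of 5 basal, 5 of 5 adipocyte, 4 of 5 endothelial, 6 of 8 leukocyte, 3 of 9 epithelial and 2 of 6 fibroblast markers were lower in AT3 tumors, and 0 of 10 skeletal muscle markers passed. Without NAM-treated M/D-driven tumor 1, 5 basal, 6 epithelial and 4 fibroblast markers were lower. Their part in the difference was not tested.

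The scale between models is itself uncertain, as the median log2 difference of all genes was -0.18 after TMM rescaling and 0.32 after rescaling by the upper quartile, and 40.4% and 64.3% of the genes called were higher in AT3 tumors. Relative to these medians, Cryab was the lowest and Hspe1 the highest of the 9 rows under both. With the upper quartile, 4 rows were called higher, Hspa8 (0.79), Dnajb1 (0.88), Hspd1 (0.78) and Hspe1 (1.58), and Cryab remained lower (-2.36). Of all 23138 genes tested with the upper quartile, 7444 were higher and 4130 lower.

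Levels were also set per length, as RPKM, which divides the reads by the length of the longest transcript and the depth of the library. In untreated M/D-driven tumors, the order was Hspa8 with a mean of 514 ± 34.6 (SD, n = 4), Hspb1 with 328 ± 147, Hspe1 with 110 ± 29.8, Cryab with 92.5 ± 38.2, Hspa1a and Hspa1b together with 84.8 ± 24.5, Hsp90aa1 with 58.9 ± 21.0 and Hspd1 with 28.7 ± 10.1, followed by Hsph1 and then Dnajb1 with 13.9 ± 2.77. Among neighbours in this order, only Hspb1 and Hspe1 had ranges that did not overlap. In untreated AT3 tumors, the order was led by Hspa8 with 621 ± 45.2 (SD, n = 3), Hspe1 with 324 ± 112 and Hspb1 with 224 ± 101, and Cryab was the last with 10.7 ± 7.02. Reads were counted on constitutive regions, whose length was not used here, so that these levels are approximate.

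The heat shock factors and the rest of the chaperone network were described from lists of related genes. The master regulator Hsf1 was at 1923 to 2306 normalized counts in untreated and at 2205 to 2997 in NAM-treated M/D-driven tumors, a log2 difference of 0.24 (SE 0.18, adjusted p = 0.790 in limma), and of 0.24 (SE 0.25) in AT3 tumors. Hsf2, a related factor, differed with NAM by 0.40 in M/D-driven tumors (SE 0.22, adjusted p = 0.739 in limma) and was higher in AT3 than in M/D-driven tumors by 0.66 (SE 0.15, adjusted p = 0.00291 in limma), whereas Hsf4 was lower in AT3 tumors by the same comparison, at -1.99 (SE 0.34, adjusted p = 0.000419 in limma). Among 6 further genes tested from the list of small heat shock proteins, Hspb8, a partner of the co-chaperone Bag3, was lower with NAM in M/D-driven tumors by the thresholds.

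Hspb8 was at 10625, 8880, 8606 and 11331 normalized counts in untreated and at 740, 10075, 2466 and 4919 in NAM-treated M/D-driven tumors. NAM-treated tumors 1, 3 and 4 were below all untreated tumors, and tumor 2 was among them. The log2 difference was -1.67 (SE 0.70, adjusted p = 0.734 in limma), and without tumor 1 it was -0.98 (SE 0.43) and no longer past the thresholds. In AT3 tumors, Hspb8 was at 8002, 2810 and 7139 in untreated and at 4071, 3211 and 1705 in NAM-treated tumors. Bag3 itself was at 3375 to 4922 in untreated and at 1160 to 5291 in NAM-treated M/D-driven tumors (log2 difference -0.63, SE 0.41, adjusted p = 0.773 in limma).

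Of 14 further genes of the Hsp70 family and its nucleotide exchange factors, 1 was lower and 0 were higher in the NAM-treated arm of the M/D model, against 3.19% and 3.03% of all genes. This was Hspa4l, an Hsp110 relative, with a log2 difference of -0.69 (SE 0.24, adjusted p = 0.734 in limma) and of -0.61 without tumor 1, where it still passed. In AT3 tumors, 2 of these 14 were higher, Hspa12b, which led them, and Hspa13 (0.72), and 1 was lower, the exchange factor Bag1 (-0.84), against 12.2% and 10.9% of all genes. None of 9 J-domain proteins, 12 genes of the Hsp90 group, 8 subunits of the CCT chaperonin (which folds actin and tubulin), 8 further mitochondrial chaperones and 12 chaperones or stress genes of the endoplasmic reticulum passed in M/D-driven tumors in limma, 0 of them also at an unadjusted p under 0.05. In AT3 tumors, 1 CCT subunit, Cct4 (-0.70), and 1 mitochondrial gene, Grpel1 (-0.78), were lower. Values after removal of a trend with transcript length are given further below. Hspb11, which was placed in the list of small heat shock proteins, was lower as well, at 838 to 1866 normalized counts in untreated and 578 to 954 in NAM-treated AT3 tumors. Whether it acts as a chaperone was not examined. The largest AT3 differences in the remaining lists were -0.51 for the J-domain gene Dnaja1, -0.71 for the Hsp90 partner Cacybp and -0.69 for Sdf2l1 of the endoplasmic reticulum.

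Between models, 4 of 8 CCT subunits were higher in AT3 tumors and 0 lower, led by Cct4 with a log2 difference of 1.29 (SE 0.17, adjusted p = 0.000083 in limma). The mitochondrial list had 2 of 8 higher, Clpp (1.06) and Grpel1 (0.72), and the endoplasmic reticulum list 2 of 12, Ddit3 (3.03), a stress transcription factor, and Dnajc10 (1.95). In the Hsp70 list, 1 was higher and 4 were lower, the largest being Hspa12a (-2.85) and Hspa12b (-1.91). Over all genes, 18.3% were higher and 27.0% lower. Without NAM-treated M/D-driven tumor 1, 6 CCT subunits were higher. After rescaling by the upper quartile, 8 of 8 CCT subunits, 6 of 8 mitochondrial and 11 of 12 endoplasmic reticulum genes were higher, and the Hsp70 list had 6 higher and 2 lower. Of all 23138 genes tested with that scaling, 7444 were higher and 4130 lower.

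Stress programs outside the chaperones gave few calls between NAM-treated and untreated tumors. No immediate-early gene of 9 passed in M/D-driven tumors in limma, 0 of them also at an unadjusted p under 0.05, and 1 of 7 oxidative stress genes was higher, Gclc, which makes the first step of glutathione synthesis (log2 difference 0.64, SE 0.27, adjusted p = 0.734 in limma, and 0.49 without tumor 1, when it did not pass). In AT3 tumors, 1 immediate-early gene was lower, Atf3 (-0.79), and 0 oxidative stress genes passed. Between models, 3 of 9 immediate-early genes were higher in AT3 tumors (Fos, Fosb and Atf3) and 1 was lower (Zfp36). Of 7 oxidative stress genes, 1 was higher (Nqo1), where 18.3% of all genes tested were higher and 27.0% lower. Without NAM-treated M/D-driven tumor 1, 2 immediate-early genes were higher. Among markers of cell types in AT3 tumors, 4 of 5 endothelial, 3 of 8 leukocyte, 2 of 9 epithelial, 1 of 4 basal, 1 of 5 smooth muscle and 1 of 6 fibroblast markers were higher with NAM, against 12.2% of all genes. Lower were 2 leukocyte, 1 epithelial, 2 basal and 1 of 5 adipocyte markers, against 10.9% of all genes, and 0 of 10 skeletal muscle markers passed either way. In M/D-driven tumors, 2 of all these markers passed, both higher, and without tumor 1 the epithelial cadherin gene Cdh1 was lower as well (-0.74, SE 0.21). The 2 were the adipocyte gene Adipoq, at 5123 to 7452 normalized counts in untreated and 8357 to 13109 in NAM-treated tumors, and the muscle myosin gene Myh4, at 0 to 6868 and 427 to 99687. The part of these cell types in the values of the heat shock proteins was not tested.

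Transcript length moved with the AT3 differences. Across 16429 genes with a known length, the log2 difference of NAM-treated against untreated AT3 tumors had a Spearman rho of 0.59 with the length of the longest transcript, against -0.04 across 18460 genes in M/D-driven tumors. These are values across genes, which are not independent replicates. Hspb1 (930 bases), Hspe1 (964) and Cryab (1117) were the shortest of the 10 genes and Hsph1 (4764) the longest. After removal of each tumor's trend with length and GC content, the AT3 log2 difference was -1.65 for Hspb1, -0.45 for Hspe1, 0.01 for Cryab, -0.70 for Dnajb1 and -0.81 for Hsph1. The removal moved Hspe1 toward 0 and Hsph1 away from it. Hspb1 had the largest difference of the 9 rows before and after, from which nothing is read, since the genes were chosen by it. Among other chaperone genes named above, the difference shrank to -0.44 for Cct4, -0.42 for Hspb11, -0.39 for Bag1, -0.19 for Cacybp and -0.18 for Sdf2l1. It grew to -0.91 for Grpel1 and -0.87 for Dnaja1. Whether length accounts for the differences in Hspe1 and these genes was not tested.

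**Figure D5:**
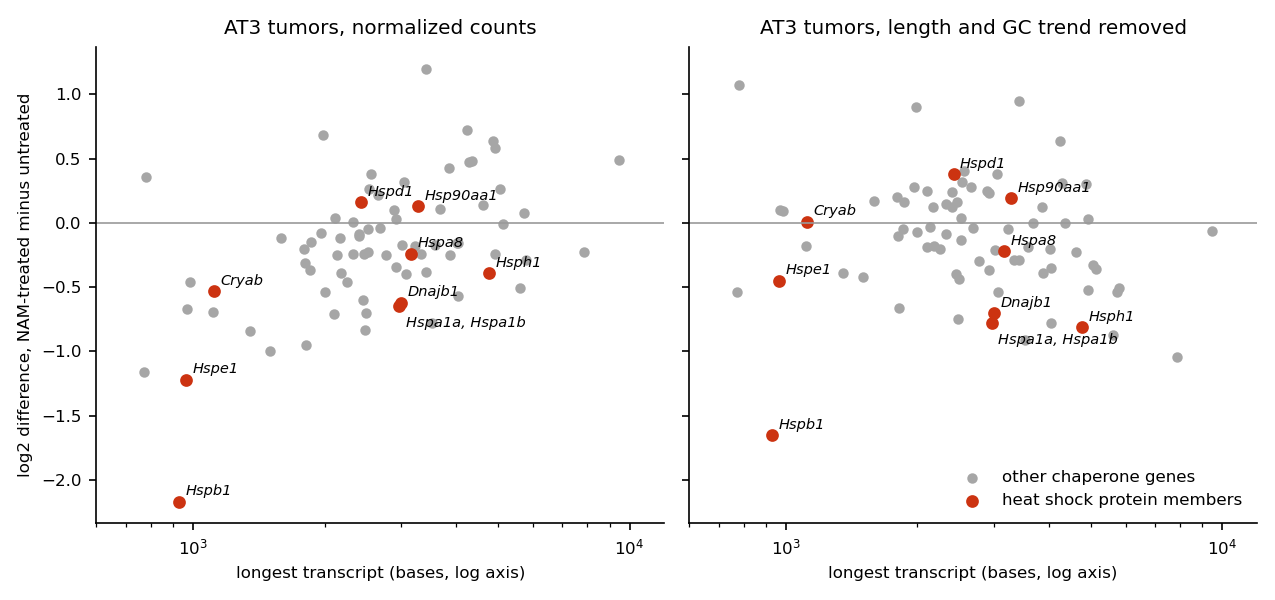
Log2 difference of NAM-treated against untreated AT3 tumors plotted against the length of the longest transcript (log axis, bases) for 78 chaperone genes, with the heat shock protein genes in red, before (left) and after (right) removal of each tumor's trend with length and GC content. On the left the short genes Hspb1 (-2.17) and Hspe1 (-1.22) are the lowest, and on the right Hspb1 is at -1.65. The genes were chosen by the difference of Hspb1 in these tumors, so nothing is read from its place in either panel.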

How the data were processed

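Bulk polyA RNA-seq was taken from 14 tumors. The deposited values are a normalized signal per gene. The authors mapped reads with STAR 2.4.0 on mm10, counted those on constitutive regions of Mouse FAST DB genes, and scaled each library with DESeq2, apart for each model. Per the labels, FastQC, Picard and SAMtools were also used. All values (100.0%, within 0.01 of a read) were whole multiples of 1 step per tumor, which gave 40936868 to 84178009 reads per tumor. Columns of the authors' own comparisons were not used.

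Groups were compared with limma 3.58.1 in R 4.3.3 (trended variance prior) on log2(normalized count + 1), over all genes that reached a mean of 10 in any group, with Benjamini-Hochberg adjusted p over all genes tested. Fold changes are on that scale and understate changes of low genes. The models were compared after TMM rescaling over all tumors, at an adjusted p of 0.05. The edgeR 4.0.16 quasi-likelihood test on the recovered counts called 992 genes higher and 645 lower in M/D-driven tumors and 2512 and 2147 in AT3 tumors, and the DESeq2 1.42.0 Wald test 1287 and 808, and 2634 and 2415. Other alternatives were the pseudocount, the low-value filter, TMM or upper quartile rescaling, the replicate block, 1 fit over all tumors, each tumor left out, and subtraction, tumor by tumor, of a spline (4 degrees of freedom) on length and GC content of the longest transcript. That subtraction was added for the model comparison after seeing the data. Lengths came from GENCODE M21 and were found for 85.1% (M/D) and 85.2% (AT3) of the genes tested. Scripts were tested on simulated data. Python 3.11.15, pandas 2.3.3, scipy 1.17.1 and matplotlib 3.10.9 were used.

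The genes, the 18 other lists, the tests and the thresholds were chosen with earlier results of these data known. Named genes were all 10 members, Hsf1 and Hsf2, the genes of each other chaperone or stress list past the thresholds in M/D-driven tumors and up to 2 with the largest AT3 differences, the 5 genes most like the members, and others (among them Bag3, Krt14, Cd79a, Acta1, Myh11 and genes called in AT3 tumors or between models) picked after their values were seen. Marker lists are given mainly by counts. P-values measure only the spread between tumors. The numbers of replicates were not taken to pair tumors. The correlation of same-numbered tumors was 0.11 to -0.44 in the M/D and 0.26 to -0.16 in the AT3 model. It was not compared with that of tumors of different numbers, so it cannot decide whether they were paired. With the number as a block, 1296 genes had an adjusted p of at most 0.05 in AT3 tumors in limma, against 1 without it.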

Additional observations from a re-analysis of the deposited data

How the results depend on the processing

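With 3 or 4 tumors per arm and SE of up to 1.04 in M/D-driven tumors, only large differences could be detected for Hspb1, Cryab, Hspa1a and Hspa1b. Under the alternatives that kept all tumors, 0 of the 9 rows were past the thresholds in M/D-driven tumors. As each tumor was left out in turn, 0 to 1 were higher and 0 to 2 lower, the 2 being Hspb1 and Dnajb1 without NAM-treated M/D-driven tumor 2 and the 1 Hsph1 without tumor 4. In AT3 tumors, the 3 lower rows ranged from 1 to 3, with 1 left without untreated AT3 tumor 1. These AT3 counts are only a description, since the genes were chosen on that contrast. Between models, 4 rows were higher with the upper quartile and 4 after removal of the length and GC trend (an alternative chosen after seeing the data), against 1, and 1 to 2 were lower as tumors were left out, the 2nd being Hspa1a without NAM-treated M/D-driven tumor 1. Over all genes, 7444 of 23138 were higher with the upper quartile and 6199 of 18937 after removal of the trend, against 4182 of 22809. The cause of these shifts was not tested.

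Small differences changed sign. In M/D-driven tumors, Hspd1 was at 0.00 with DESeq2 and 0.10 without the length trend, and leave-one-out values ran from -0.21 to 0.21 for Hspd1, from -0.31 to 0.16 for Hsp90aa1 and from -0.08 to 0.36 for Hspe1. In AT3 tumors, those of Cryab ran from -1.42 to 0.04. Between models they ran from -0.07 to 0.18 for Hsph1 and from -0.04 to 0.17 for Hsp90aa1. Without the 2 tumors farthest from the median, r was 0.87 for Hspd1 and Hspe1, -0.55 for Hspb1 and Cryab, 0.30 for Hsph1 and Dnajb1 and -0.08 for Hspa8 and Hsp90aa1. Within experiment 1 it was -0.04 for Hspb1 and Cryab and 0.16 for Hsph1 and Dnajb1.

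With the replicate number as a block (replicate block), 0 of the 9 rows were past the thresholds in M/D-driven and 3 in AT3 tumors, and the log2 difference of Hspb1 stayed at -1.77 and -2.17. The AT3 count is again only a description. Over all genes, the block called 479 higher and 522 lower in M/D-driven tumors, against 658 and 692, and in AT3 tumors 1296 genes had an adjusted p of at most 0.05, against 1. Over all genes in M/D-driven tumors, 1219 were higher without the filter on low values, 312 with a minimum of 50, 992 with edgeR, 1287 with DESeq2 and 993 with 1 fit over 14 tumors, the last of which gave 1232 lower. Leaving out a tumor gave 395 to 1201 higher and 351 to 1511 lower. In AT3 tumors, 1300 were higher and 1303 lower without the length trend, against 2358 and 2100, and leaving out a tumor gave 904 to 3459 higher and 714 to 3310 lower.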

Other observations

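The muscle-associated small heat shock proteins Hspb6 and Hspb7, and Hspb2, the neighbour of Cryab, were highest of the 8 M/D-driven tumors in NAM-treated tumor 4, the tumor with the highest muscle markers. Hspb6 was at 47 to 96 normalized counts in the untreated arm and at 54, 82, 49 and 598 in NAM-treated tumors 1 to 4. Hspb7 was at 16 to 295 in the untreated arm and at 22, 169, 9 and 918 in NAM-treated tumors 1 to 4, where Hspb2 was at 20, 195, 112 and 583 against 112 to 286. None of these 3 genes was past the thresholds in M/D-driven tumors in limma, and none had an unadjusted p under 0.05. In AT3 tumors, Hspb7 was at 270, 6 and 216 in the untreated arm and at 460, 10 and 46 in the NAM-treated arm, and the highest Acta1, 8411, was in the same tumor as the highest Hspb7. The 3 genes were picked after their values were seen. In NAM-treated M/D-driven tumor 4, Hspb3 (69) was also the highest, whereas Hspb8 (4919) lay below the untreated arm and Hspb11 (600) inside its range. NAM-treated M/D-driven tumor 2 had the second highest skeletal muscle sum, 106363, and all 3 genes lay inside the untreated range there. The part of muscle in these values was not tested.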
